A study of Mus musculus with 16 samples.

Results

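Acute phase genes encode plasma proteins that the liver makes in larger or smaller amounts during inflammation. Described here are 9 of them on bead arrays of mouse hepatocytes: the serum amyloid A genes Saa1, Saa2 and Saa3, lipocalin 2 (Lcn2), haptoglobin (Hp), the orosomucoids Orm1 and Orm2, C-reactive protein (Crp), and hepcidin (Hamp). They were taken by symbol from the platform annotation, which assigned 10 of the 24613 probes to them, 2 to Hp and 1 to each other gene. All 10 probes were detected on 16 of 16 arrays, and the 9 genes are among 7746 genes tested. The rule picks probes by symbol and uses no measured value, but the symbols were chosen with earlier results of these data known.

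In the liver, interleukin-1 and tumour necrosis factor act through NF-kB, and interleukin-6 acts through the kinase JAK and the transcription factor STAT3. The C/EBP factors act beside both routes on the promoters of acute phase genes. Hepcidin is a peptide hormone that makes cells retain iron by removing the iron exporter ferroportin, and its gene responds to interleukin-6 and to bone morphogenetic proteins.

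The arrays measured total RNA of primary hepatocytes from C57BL/6 mice aged 6 to 8 weeks, 16 arrays in 8 groups of 2. The cells carried an adenovirus with shRNAs against the deacetylases HDAC4 and HDAC5, or a control adenovirus that the sample titles call GFP and the design text calls shGFP. They received forskolin, which activates adenylyl cyclase and raises cyclic AMP, or its vehicle DMSO, for 4 h or 2 h. Each virus therefore has a forskolin and a DMSO group at 4 h and at 2 h, and no uninfected group is among them. The forskolin dose, the time since infection and the number of mice are not given in the sources used here, and whether both members of a pair were grown separately is not stated. The p-values thus reflect only the scatter among the hybridised RNAs, which may be technical. The arrays of a group are called A and B after the columns of the deposited table.

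Depth on an array is the signal over background: 8455 to 10082 of the probes were detected on each array, and each array correlated best with the other array of its group (Pearson's r across probes 0.9919 to 0.9938 within groups). Levels are log2 signals after background correction and quantile normalization. The Hdac5 probe lay between 5.72 and 6.73 on the 8 HDAC4/5 shRNA arrays, of which 3 detected it, against 9.02 to 10.35 on the 8 GFP arrays, which all did. The Hdac4 probe lay between 5.74 and 6.99, detected on 4 of the 8 HDAC4/5 shRNA arrays, against 7.40 to 8.66, detected on all 8 GFP arrays. Of the defining markers of other liver cells, Clec4f (Kupffer cells), Mpo (neutrophils), Lrat (stellate cells) and Epcam (bile duct cells) were detected on 0 arrays, while Adgre1, Col1a1, Stab2 and Cdh5 were detected on all 16 and Krt19 on 13. The single probe for albumin (Alb), the defining hepatocyte marker, was detected on 0 arrays. The 6 hepatocyte markers that were tested, of 10 listed, summed to 4570 to 8375 linear signal units on the HDAC4/5 shRNA arrays against 16330 to 29050 on the GFP arrays. In bulk RNA, fewer cells of a type and less RNA per cell cannot be told apart.

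The promoter windows below show the letters just upstream of the genes whose levels moved together or apart. RefSeq windows (GRCm38.p6) were held for 7 of the 9 genes, all but Hp and Orm1, and the 250 bases before each start were searched on both strands for 5 motifs. The motifs were TTGCNNAA (C/EBP), TTCNNNGAA (STAT), TGACG (the half-site of the cyclic AMP response element), TGACGTCA (the full element, which holds the half-site) and GGGNNTTTC (part of an NF-kB site). The C/EBP letters were found in 5 of 7 windows, those of Saa1, Saa2, Saa3, Lcn2 and Orm2, against 9.56% of 32851 RefSeq windows of the same length. The STAT letters were found in 1, Hamp (7.02% of all windows), and TGACG in 1, Crp (17.8%). TGACGTCA and GGGNNTTTC were in 0 of 7 (1.55% and 3.72% of all windows). A match is a description of letters and not a site. The Saa1 and Saa2 windows are 94.8% identical when aligned, so their C/EBP matches are not separate findings. The Orm2 window is not printed below. Capitals mark the matched letters in each line, written 5′ to 3′ on the gene's strand.
Saa1: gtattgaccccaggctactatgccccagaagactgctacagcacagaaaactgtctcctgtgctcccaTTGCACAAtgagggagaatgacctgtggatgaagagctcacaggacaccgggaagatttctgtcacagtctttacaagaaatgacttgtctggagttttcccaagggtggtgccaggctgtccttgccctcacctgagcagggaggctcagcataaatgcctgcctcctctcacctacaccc
Saa2: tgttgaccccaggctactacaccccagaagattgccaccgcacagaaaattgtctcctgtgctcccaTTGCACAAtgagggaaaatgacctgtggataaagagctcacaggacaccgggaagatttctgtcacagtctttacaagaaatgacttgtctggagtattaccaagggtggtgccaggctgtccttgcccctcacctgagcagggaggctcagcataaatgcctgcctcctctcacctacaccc
Saa3: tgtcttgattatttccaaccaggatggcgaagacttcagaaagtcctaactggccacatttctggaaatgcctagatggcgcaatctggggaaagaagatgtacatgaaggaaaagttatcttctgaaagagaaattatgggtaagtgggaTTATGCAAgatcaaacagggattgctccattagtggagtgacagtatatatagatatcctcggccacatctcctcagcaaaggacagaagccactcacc
Lcn2: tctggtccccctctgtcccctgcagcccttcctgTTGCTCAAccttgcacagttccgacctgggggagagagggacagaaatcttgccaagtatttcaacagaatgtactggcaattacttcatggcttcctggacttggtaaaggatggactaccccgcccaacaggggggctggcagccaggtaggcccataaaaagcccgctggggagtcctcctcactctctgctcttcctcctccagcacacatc
Crp: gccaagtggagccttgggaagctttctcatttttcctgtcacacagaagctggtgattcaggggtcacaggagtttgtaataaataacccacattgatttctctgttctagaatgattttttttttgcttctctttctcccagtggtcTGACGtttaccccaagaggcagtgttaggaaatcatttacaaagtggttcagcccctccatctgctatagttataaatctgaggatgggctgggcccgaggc
Hamp: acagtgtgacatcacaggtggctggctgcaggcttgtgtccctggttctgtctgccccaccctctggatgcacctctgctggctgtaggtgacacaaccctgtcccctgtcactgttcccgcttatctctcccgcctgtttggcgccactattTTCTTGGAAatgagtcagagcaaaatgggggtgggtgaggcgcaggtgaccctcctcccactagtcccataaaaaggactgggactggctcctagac

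The Saa1 window lies at chr7:46742981-46743230 on the minus strand and the Saa2 window at chr7:46751583-46751832 on the plus strand. Aligned, they shared 238 of 251 positions (94.8%), whereas the other pairs of the 7 windows shared 42.7% to 53.2%. The matched C/EBP letters began 182 bases before the start of Saa1 and 183 before that of Saa2. The Saa3 window (chr7:46715677-46715926, minus strand) holds its match 99 bases before the start, and the Lcn2 window (chr2:32387740-32387989, minus strand) 216 bases before it. The Crp window (chr1:172697806-172698055, plus strand) holds TGACG 102 bases before the start, and the Hamp window (chr7:30944030-30944279, minus strand) holds the STAT letters 97 bases before it.

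Saa3, the serum amyloid A gene that mouse macrophages and fat cells also express, ranged over 6.04 log2 units between its lowest and highest group, a 65.6-fold span. In HDAC4/5 shRNA cells it stood at 15.02 and 15.06 after 4 h of forskolin, against 15.61 and 15.61 after 4 h of DMSO. At 2 h it stood at 11.06 and 11.23 under forskolin, against 13.47 and 13.53 under DMSO. The shRNA cells were thus higher at 4 h than at 2 h under both treatments. In GFP cells Saa3 read 9.35 and 9.79 after 4 h of forskolin, against 10.01 and 10.40 after 4 h of DMSO. At 2 h the GFP cells gave 10.55 and 10.68 under forskolin, against 14.22 and 14.29 under DMSO. The DMSO arrays of 2 h were the only high ones of this virus, and no neighbouring pair of groups in the order of levels overlapped.

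Saa1 and Saa2 encode the circulating serum amyloid A proteins that travel on high-density lipoprotein. Saa1 stood at 11.002 and 11.188 after 4 h of forskolin and 11.82 and 11.89 after 4 h of DMSO in HDAC4/5 shRNA cells. At 2 h these cells gave 11.42 and 11.50 under forskolin and 11.37 and 11.42 under DMSO. Forskolin arrays lay below DMSO arrays at 4 h, and the groups overlapped at 2 h. In GFP cells Saa1 stood at 10.81 and 10.65 after 4 h of forskolin and 11.40 and 11.34 after 4 h of DMSO. At 2 h they gave 12.10 and 11.87 under forskolin and 12.32 and 12.28 under DMSO. The 2 h GFP arrays were the highest by group and the 4 h GFP forskolin arrays the lowest, a 2.96-fold span. Saa2 kept between 6.79 and 7.87 on all arrays, a 1.93-fold span between groups, with the same highest and lowest groups. Its probe was dim, with raw signals of 169.4 to 314.1. Over the 8 group means the profiles of Saa1 and Saa2 correlated at r = 0.955, a description in which both genes share the arrays. The probe sequences are not used here, so it was not tested whether each of these probes reads only its own gene, and the same holds for Orm1 and Orm2.

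Lcn2, a secreted protein that binds bacterial siderophores, was read near the top of the scanner's range, with raw signals of 13775 to 63556 on arrays whose brightest probe reached 57385 to 66664. In HDAC4/5 shRNA cells it stood at 15.69 and 15.64 after 4 h of forskolin, against 15.74 and 15.92 under DMSO. The 2 h arrays of these cells gave 13.64 and 13.76 under forskolin, against 14.61 and 14.72 under DMSO. In GFP cells Lcn2 stood at 14.11 and 13.99 after 4 h of forskolin, against 14.02 and 14.23 under DMSO. The 2 h GFP arrays gave 14.17 and 13.99 under forskolin, against 15.74 and 15.74 under DMSO. Lcn2 was therefore high in the 2 groups of shRNA cells at 4 h and in GFP cells after 2 h of DMSO. The remaining GFP groups overlapped one another in these normalized levels. In raw signal the 4 h forskolin arrays of GFP cells lay below the 4 h DMSO arrays, at 14482.7 and 15469.4 against 17416.1 and 21567.6. The profile resembled that of Saa3 (r = 0.924 over the 8 group means, which share arrays).

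Haptoglobin binds free haemoglobin, and its 2 probes differed in how far they moved. The probe used in the fit, the brighter one on average, ranged from 13.93 to 15.47 over the arrays, a 2.36-fold span between groups. The second probe ranged from 13.02 to 15.80, a 6.64-fold span, with raw signals of up to 65171. On the first probe the HDAC4/5 shRNA cells gave 15.34 and 15.34 after 4 h of forskolin, against 15.04 and 14.83 under DMSO, and 14.27 and 13.93 after 2 h of forskolin, against 14.73 and 14.61 under DMSO. The GFP cells gave 15.14 and 15.02 after 4 h of forskolin, against 15.062 and 15.002 under DMSO, and 14.70 and 14.63 after 2 h of forskolin, against 15.47 and 15.14 under DMSO. Forskolin arrays were below DMSO arrays at 2 h in both viruses. At 4 h they were above DMSO in shRNA cells and overlapped it in GFP cells in these normalized levels. In raw signal the 4 h forskolin arrays of GFP cells lay below DMSO, at 28294.2 and 28893.2 against 36212.8 and 34282.5.

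Orm1 and Orm2 encode the orosomucoids, plasma glycoproteins that carry drugs and lipids. Orm1 stood at 11.52 and 11.69 after 4 h of forskolin, against 11.84 and 11.91 under DMSO, in HDAC4/5 shRNA cells. After 2 h it stood at 10.92 and 11.01 under forskolin, against 11.24 and 11.12 under DMSO. Both shRNA groups of 4 h lay above both groups of 2 h. In GFP cells Orm1 stood at 11.03 and 11.29 after 4 h of forskolin, against 11.58 and 11.46 under DMSO. After 2 h it stood at 11.61 and 11.72 under forskolin, against 12.86 and 13.02 under DMSO. The 2 h DMSO arrays of GFP cells stood apart above all other arrays. Orm2 ranged from 9.15 to 11.10 and was highest in the same group, at 11.10 and 10.94, and in 6 of the 7 neighbouring pairs in its order of levels the arrays overlapped.

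Crp, a pentraxin that responds to inflammation more weakly in mice than in humans, was lower on all 8 HDAC4/5 shRNA arrays than on the GFP arrays of the same treatment and time. In shRNA cells it stood at 10.67 and 10.83 after 4 h of forskolin, against 9.32 and 9.12 under DMSO. After 2 h it stood at 8.18 and 8.49 under forskolin, against 8.91 and 8.77 under DMSO. In GFP cells Crp stood at 12.44 and 12.40 after 4 h of forskolin, against 11.06 and 10.98 under DMSO. After 2 h it stood at 10.34 and 10.45 under forskolin, against 12.36 and 12.30 under DMSO. Forskolin arrays were above DMSO arrays at 4 h and below them at 2 h in both viruses. No neighbouring groups overlapped in these normalized levels, over a 16.9-fold span. In raw signal the top groups, both of GFP cells, had the other order. They read 4629 and 5245 after 4 h of forskolin, against 5897 and 5555 after 2 h of DMSO.

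Hamp ranged over 4.48 log2 units, a 22.4-fold span. In HDAC4/5 shRNA cells it stood at 10.08 and 10.20 after 4 h of forskolin, against 9.76 and 9.57 under DMSO. After 2 h it stood at 6.87 and 6.60 under forskolin, against 7.28 and 7.55 under DMSO. All 4 h arrays of these cells lay above all their 2 h arrays. In GFP cells Hamp stood at 7.92 and 7.46 after 4 h of forskolin, against 8.38 and 8.34 under DMSO. After 2 h it stood at 8.48 and 8.76 under forskolin, against 11.19 and 11.24 under DMSO. Here the 2 h DMSO arrays were the highest of all 16. The 4 h forskolin arrays of GFP cells overlapped the 2 h DMSO arrays of shRNA cells.

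**Figure D1:**
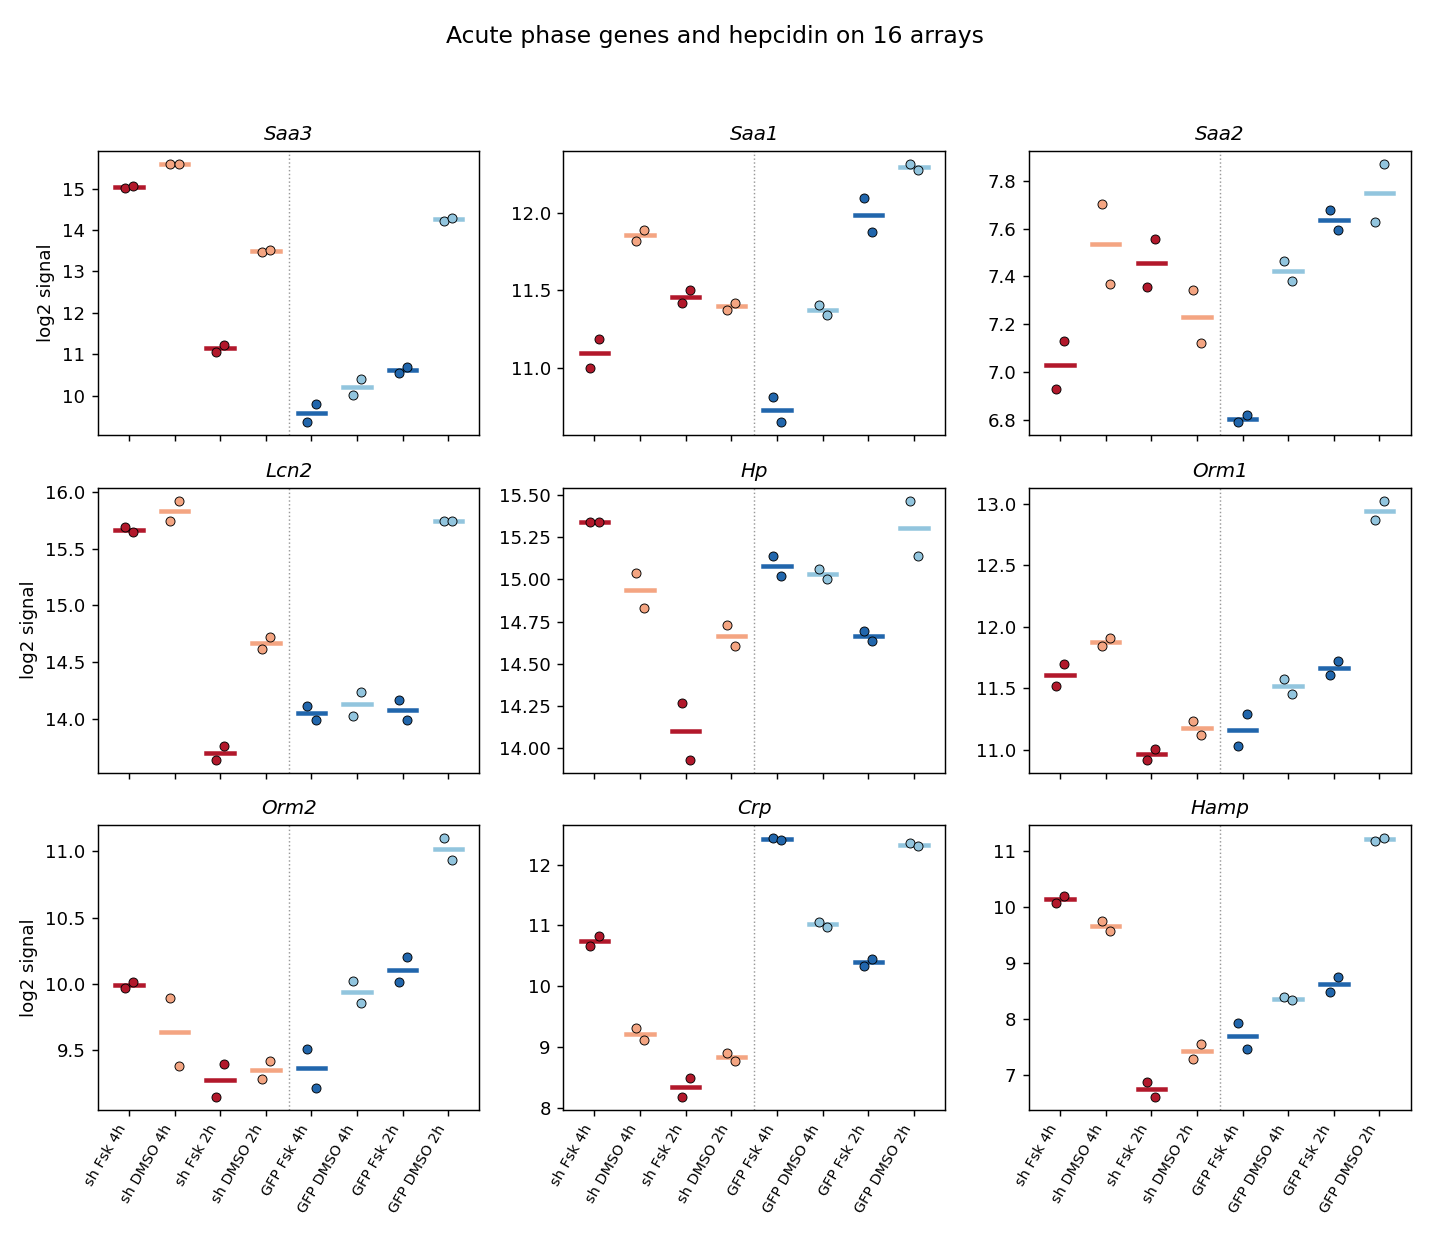
Log2 signal (vertical axes, scaled per gene) of the 9 genes on 16 arrays in 8 groups; points are arrays, bars are means of 2, sh is HDAC4/5 shRNA and Fsk is forskolin. Saa3 sits at 15.02 to 15.61 on the 4 h arrays of HDAC4/5 shRNA cells and at 9.35 to 10.40 on the 4 h arrays of GFP cells.

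The 2 DMSO groups of each virus ask how far vehicle-treated cells moved between 2 h and 4 h. In HDAC4/5 shRNA cells 5 of the 9 genes rose at 4 h relative to 2 h and 0 fell, where 8.64% of all genes tested changed in either direction and 4.48% rose. In GFP cells 7 of the 9 fell and 0 rose, where 11.7% of all genes changed and 5.67% fell. The median difference over the 9 genes was 0.46 in shRNA cells and -1.31 in GFP cells, while the median of all genes was -0.00 and 0.01. These values come from 1 limma model over the 16 arrays with Benjamini-Hochberg adjustment over the 7746 genes, and a gene rose or fell where its adjusted p was under 0.05. The adjusted p-values below come from the same model, except that the second Hp probe was tested in a fit of all probes, that values without an array come from refits on the arrays left, and that values under another named setting come from the fit with that setting. The hepatocyte markers moved over the same DMSO times, with 0 of 6 higher and 3 lower in shRNA cells (median -0.54) and 4 higher and 0 lower in GFP cells (median 0.57), and their part in the result was not tested.

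In HDAC4/5 shRNA cells Saa3 was 4.31-fold higher after 4 h than after 2 h of DMSO (log2 difference 2.11, SE 0.15, adjusted p = 1.95e-06), and in GFP cells it was 16.6-fold lower (-4.05, SE 0.15, adjusted p = 1.89e-09). Hamp was 4.75-fold higher in shRNA cells (2.25, SE 0.16, adjusted p = 2e-06) and 7.26-fold lower in GFP cells (-2.86, SE 0.16, adjusted p = 1.04e-07). Lcn2 was 2.24-fold higher in shRNA cells (adjusted p = 2.73e-05) and 3.06-fold lower in GFP cells (adjusted p = 7.33e-07). Orm1 followed the same directions, by 0.70 in shRNA cells (adjusted p = 0.00194) and -1.43 in GFP cells (adjusted p = 3.37e-06). Crp and Orm2 fell in GFP cells (-1.31 and -1.08, adjusted p = 1.16e-05 and 0.000829), and in shRNA cells their differences were 0.38 and 0.29 (adjusted p = 0.0737 and 0.35). Saa1 fell in GFP cells (-0.93, adjusted p = 8.58e-05). In shRNA cells it rose by 0.46 (adjusted p = 0.0183), a call lost without any 1 of the 4 DMSO arrays of these cells: without 2 h array A (0.43, adjusted p = 0.108), 2 h array B (0.48, 0.0664), 4 h array A (0.49, 0.0675) or 4 h array B (0.42, 0.116). Saa2 and the brighter Hp probe did not pass in either virus, while the second Hp probe fell in GFP cells (-1.38, adjusted p = 8.97e-05). The difference between the viruses in this DMSO shift passed the test for 7 of the 9 genes, all more positive in shRNA cells, where 11.03% of all genes passed and 5.37% did so in that direction. The brighter Hp probe did not pass there (0.54, adjusted p = 0.0962), although it did with the array letter as a block (0.54, adjusted p = 0.0292), and the second Hp probe did (1.81, adjusted p = 0.000141). The difference was 6.16 for Saa3 (SE 0.21, adjusted p = 7.73e-10) and 5.11 for Hamp (SE 0.23, adjusted p = 9.48e-09).

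**Figure D2:**
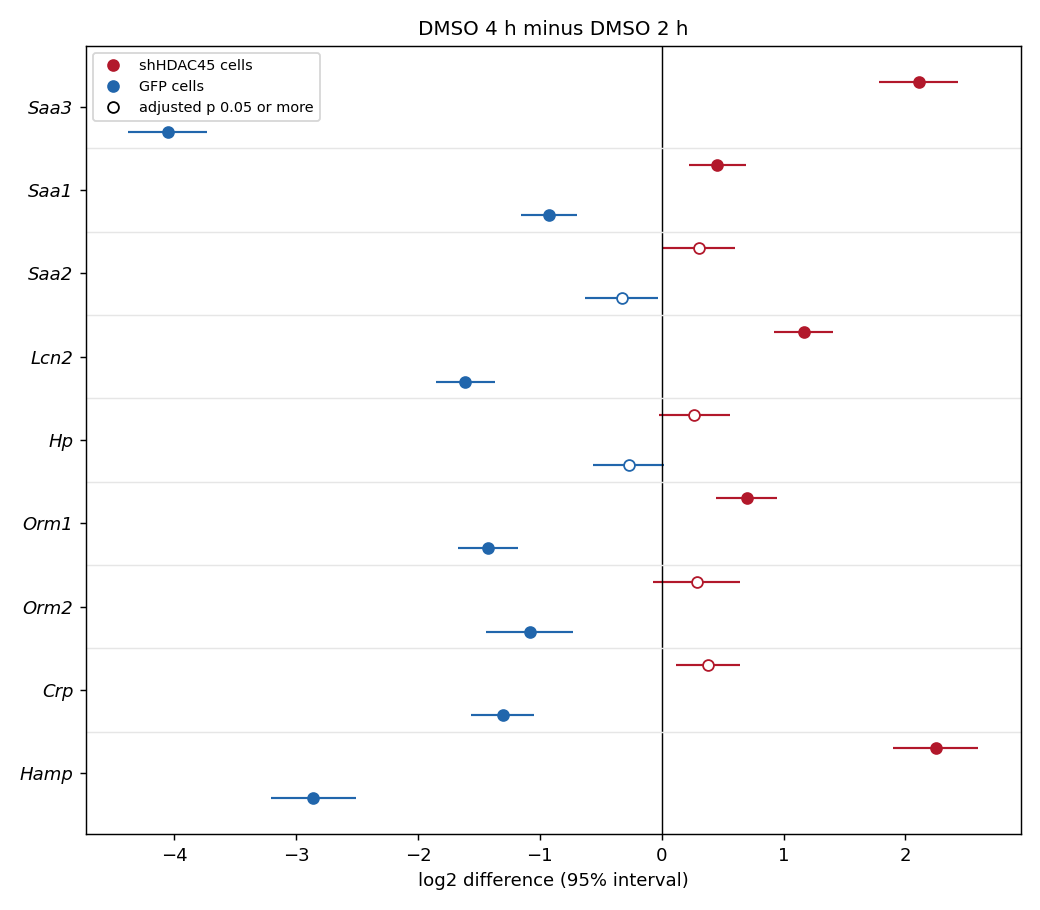
Log2 difference of DMSO 4 h minus DMSO 2 h for the 9 genes (horizontal axis, 95% interval, 2 arrays a group), in HDAC4/5 shRNA cells (shHDAC45, red) and GFP cells (blue); open points did not pass an adjusted p of 0.05. Saa3 reads 2.11 in HDAC4/5 shRNA cells and -4.05 in GFP cells, and Hamp 2.25 and -2.86.

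Whether lowering HDAC4 and HDAC5 changed these genes was asked at each treatment and time, against the GFP arrays of that treatment and time. At 2 h of DMSO all 9 genes were lower in HDAC4/5 shRNA cells, where 50.04% of all genes changed and 24.95% were lower. At 4 h of DMSO 5 were higher and 1 lower, where 52.7% of all genes changed. Under forskolin 6 were higher and 1 lower at 4 h, where 59.1% changed, and 1 was higher and 7 lower at 2 h, where 50.1% changed. The median over the 9 genes was 0.36 at 4 h of DMSO, 0.44 at 4 h of forskolin, -0.56 at 2 h of forskolin and -1.07 at 2 h of DMSO, while the median of all genes was 0.01, -0.00, 0.01 and 0.01. The GFP DMSO arrays of 2 h enter both this comparison and the fall from 2 h to 4 h above. The hepatocyte marker sums given above were lower on the HDAC4/5 shRNA arrays. Of the 6 tested hepatocyte markers 0 were higher in each comparison. At 4 h 6 were lower under either treatment, where most of the called acute phase genes were higher. At 2 h 5 were lower under forskolin and 4 under DMSO. The part of these markers in the result was not tested.

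At 4 h Saa3 was 44.3-fold higher in HDAC4/5 shRNA cells under forskolin (log2 difference 5.47, SE 0.15, adjusted p = 2.99e-11) and 42.3-fold higher under DMSO (5.40, SE 0.15, adjusted p = 3.95e-11). It stood 3rd of 7746 genes in the order of differences both times. Lcn2 was 3.06-fold and 3.26-fold higher (adjusted p = 8.09e-08 and 5.74e-08). Hamp was 5.46-fold higher under forskolin (2.45, SE 0.16, adjusted p = 5.15e-08) and 2.47-fold higher under DMSO (1.30, SE 0.16, adjusted p = 1.86e-05). Crp went the other way, 3.19-fold lower under forskolin (adjusted p = 1.17e-07) and 3.50-fold lower under DMSO (adjusted p = 6.61e-08). Saa1 was higher by 0.36 under forskolin (adjusted p = 0.0106) and by 0.48 under DMSO (adjusted p = 0.00213), and Orm1 by 0.44 (adjusted p = 0.00506) and 0.36 (adjusted p = 0.0194). Orm2 was higher under forskolin (0.63, adjusted p = 0.00559) and read -0.30 under DMSO (adjusted p = 0.143). Saa2 and Hp did not pass at 4 h, except under other settings for forskolin: Hp passed with the array letter as a block (0.26, adjusted p = 0.0439), on the authors' normalized values (0.32, 0.0382) and after scaling to a common median (0.44, 0.0203), which also gave Saa2 a call (0.42, 0.0159). Several of the smaller calls rested on single arrays. Under forskolin Saa1 lost its call without HDAC4/5 shRNA array B (0.27, adjusted p = 0.0946) or GFP array B (0.28, 0.086), Orm1 without shRNA array B (0.36, 0.0504) or GFP array A (0.32, 0.0616), and Orm2 without GFP array B (0.48, 0.0594). Under DMSO Orm1 lost it without shRNA array B (0.33, 0.0925) or GFP array B (0.30, 0.115), and Orm2 gained one, lower, without shRNA array A (-0.56, 0.017).

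At 2 h the order was different. Hamp was 3.68-fold lower in HDAC4/5 shRNA cells under forskolin (-1.88, SE 0.16, adjusted p = 8.88e-07) and 14.0-fold lower under DMSO (-3.80, SE 0.16, adjusted p = 2.61e-09), the lowest of all 7746 differences under DMSO. The shRNA arrays were dim for Hamp, with raw signals of 194 and 180.2 under forskolin (detection p 0.00487 and 0.00852) and 227.2 and 273.5 under DMSO. The size of these folds depends on the processing. Over the other settings the difference came as near to 0 as -1.16 under forskolin and -3.09 under DMSO. Crp was 4.16-fold lower under forskolin (adjusted p = 3.35e-08) and 11.3-fold lower under DMSO (adjusted p = 6.3e-10). Orm1 was lower under forskolin and DMSO (-0.70 and -1.76) and so was Orm2 (-0.83 and -1.67), with adjusted p-values of at most 0.00102. Saa1 was lower under forskolin (-0.53, adjusted p = 0.00125) and DMSO (-0.90, adjusted p = 1.68e-05). Hp was lower under both (-0.56 and -0.63, adjusted p = 0.00364 and 0.00169), as was its second probe (-1.28 and -1.79, adjusted p = 2.4e-05 and 1.46e-06). Lcn2 was 1.30-fold lower under forskolin (adjusted p = 0.0126) and 2.10-fold lower under DMSO (adjusted p = 5.02e-06). Saa3 was 1.44-fold higher under forskolin (adjusted p = 0.01) and 1.69-fold lower under DMSO (adjusted p = 0.000996). Saa2 passed under DMSO (-0.52, adjusted p = 0.00686), but not without HDAC4/5 shRNA array B (-0.41, 0.067) or GFP array B (-0.40, 0.0718). Under forskolin Lcn2 lost its call without shRNA array A (-0.32, adjusted p = 0.0881) or GFP array A (-0.29, 0.105), Saa3 without shRNA array B (0.45, 0.0741) or GFP array A (0.46, 0.0633), and Hp without shRNA array B (-0.40, 0.051). The medians of all genes under forskolin moved by 0.16 at both times when arrays were scaled to a common median, and 67.3% of the called genes were then higher at 2 h and 65.8% at 4 h, against 50.7% and 50.9% after quantile normalization.

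**Figure D3:**
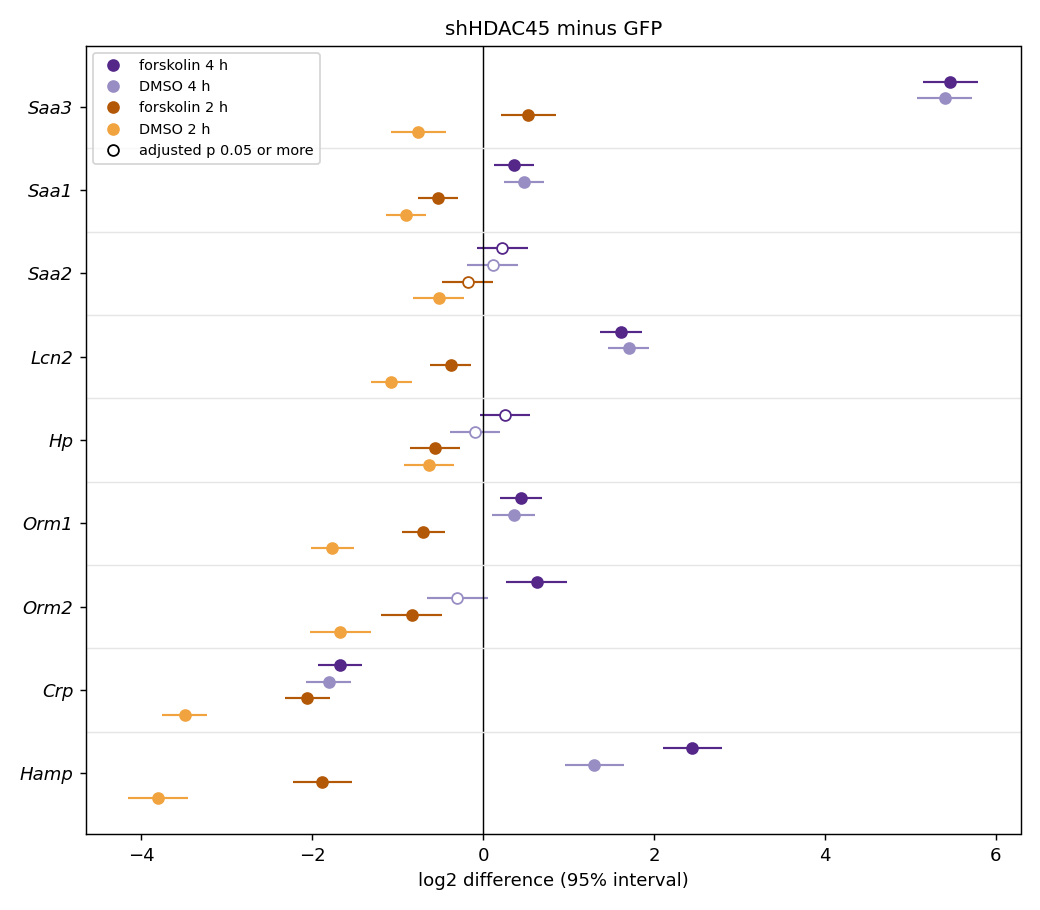
Log2 difference of HDAC4/5 shRNA minus GFP for the 9 genes (horizontal axis, 95% interval, 2 arrays a group) at each treatment and time; open points did not pass an adjusted p of 0.05. Crp is below 0 in all 4 comparisons, from -3.49 to -1.67, and Hamp runs from -3.80 at 2 h of DMSO to 2.45 at 4 h of forskolin.

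Forskolin mimics the cyclic AMP signal of glucagon, and its effect was taken against DMSO of the same virus and time. At 4 h 3 of the 9 genes were higher and 3 lower in HDAC4/5 shRNA cells, where 35.3% of all genes changed, and 1 was higher and 6 lower in GFP cells, where 32.03% changed. At 2 h 5 were lower and 0 higher in shRNA cells, where 4.80% of all genes changed and 2.52% were lower. In GFP cells 7 were lower and 0 higher at 2 h, where 21.3% changed and 10.8% were lower. The median over the 9 genes was -0.17 and -0.58 at 4 h in shRNA and GFP cells, and -0.50 and -1.28 at 2 h.

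On the probes used in the fit, Crp was the one gene of the 9 that forskolin raised at 4 h in both viruses, 2.89-fold in HDAC4/5 shRNA cells (log2 difference 1.53, SE 0.12, adjusted p = 1.22e-06) and 2.63-fold in GFP cells (1.40, SE 0.12, adjusted p = 1.98e-06). The 3 serum amyloid A genes fell in both viruses. Saa1 was at -0.76 in shRNA cells (adjusted p = 0.000149) and -0.64 in GFP cells (adjusted p = 0.00054), Saa2 at -0.50 (0.0128) and -0.62 (0.00407), and Saa3 at -0.57 (0.0105) and -0.63 (0.00587). Hamp rose in shRNA cells (0.48, adjusted p = 0.0351) and fell in GFP cells (-0.67, adjusted p = 0.00648). Hp rose in shRNA cells (0.40, adjusted p = 0.0338) and read 0.05 in GFP cells (adjusted p = 0.832), while its second probe rose in both, by 0.77 (adjusted p = 0.00249) and 0.46 (adjusted p = 0.0414). Orm1 and Orm2 fell in GFP cells (-0.36 and -0.58, adjusted p = 0.0315 and 0.0174), and Lcn2 passed in neither virus. In shRNA cells the calls of Hamp, Hp, Saa2 and Saa3 did not survive single omissions. Hamp lost its call without forskolin array A (0.54, adjusted p = 0.0737) or B (0.41, 0.16) or DMSO array A (0.57, 0.0525) or B (0.38, 0.189). Hp lost it without forskolin array A or B (0.40, 0.109 each) or DMSO array B (0.30, 0.208), Saa2 without forskolin array A (-0.40, 0.101) or DMSO array A (-0.34, 0.13), and Saa3 without forskolin array A (-0.55, 0.058). Orm2 gained one without DMSO array A (0.61, 0.0189). In GFP cells Saa3 lost its call without forskolin array A (-0.41, 0.0734) or DMSO array B (-0.44, 0.073), Hamp without forskolin array B (-0.44, 0.0775), and Orm2 without forskolin array B (-0.43, 0.137) or DMSO array A (-0.49, 0.109). Orm1 lost it without forskolin array A (-0.23, 0.24), DMSO array A (-0.30, 0.164) or DMSO array B (-0.42, 0.0567).

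At 2 h forskolin lowered Saa3 5.12-fold in HDAC4/5 shRNA cells (-2.36, SE 0.15, adjusted p = 3.99e-07) and 12.5-fold in GFP cells (-3.64, SE 0.15, adjusted p = 1.45e-09). Lcn2 was 1.96-fold lower in shRNA cells (adjusted p = 0.00012) and 3.17-fold lower in GFP cells (adjusted p = 1.98e-07). Hamp was 1.60-fold lower in shRNA cells (-0.68, adjusted p = 0.0277) and 6.07-fold lower in GFP cells (adjusted p = 8e-08). Without background correction the difference in shRNA cells was -0.35 and lost its call (adjusted p = 0.0624). Crp was 1.41-fold lower in shRNA cells (adjusted p = 0.0315) and 3.82-fold lower in GFP cells (adjusted p = 8.86e-08). Hp fell in shRNA cells (-0.57, adjusted p = 0.0287) and GFP cells (-0.64, adjusted p = 0.00451), and its second probe fell further, at -0.95 (adjusted p = 0.00296) and -1.45 (adjusted p = 2.36e-05). Orm1 and Orm2 fell in GFP cells (-1.28 and -0.92, adjusted p = 3.87e-06 and 0.00151) and did not pass in shRNA cells, at -0.21 and -0.08. Saa1 and Saa2 passed in neither virus, and read -0.31 and -0.12 in GFP cells (adjusted p = 0.0549 and 0.606). Saa1 in GFP cells lay close to the threshold and passed, with the same sign, without GFP forskolin array A (-0.42, adjusted p = 0.0395), without background correction (-0.30, 0.0239), on the authors' normalized values (-0.31, 0.0313), with the array letter as a block (-0.31, 0.0497), with a trended variance prior (-0.31, 0.0205) and with only probes detected on at least 8 arrays (-0.31, 0.0492). After scaling to a common median it read -0.60 (0.003) and Saa2 -0.38 (0.0452), so that 9 of the 9 genes were then lower in GFP cells. In shRNA cells the calls other than Saa3 and Lcn2 rested on single arrays. Crp lost its call without forskolin array A (-0.34, adjusted p = 0.278), DMSO array A (-0.43, 0.193) or DMSO array B (-0.57, 0.0755). Hp lost it without forskolin array B (-0.40, 0.241), DMSO array A (-0.50, 0.17) or DMSO array B (-0.63, 0.0825). Hamp lost it without forskolin array A (-0.81, 0.0513) or B (-0.54, 0.203) or DMSO array B (-0.54, 0.212). In GFP cells Hp lost it without DMSO array A (-0.47, 0.0613).

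The forskolin differences depend on which DMSO arrays are the baseline. Set against the 4 h DMSO arrays of GFP cells, the 2 h forskolin arrays of GFP cells read 0.41 for Saa3 (adjusted p = 0.0823), 0.26 for Hamp (adjusted p = 0.309), 0.15 for Orm1 and 0.17 for Orm2 (adjusted p = 0.431 and 0.549), and -0.05 for Lcn2 (adjusted p = 0.814). Crp stayed lower (-0.63, adjusted p = 0.00306) and Saa1 was higher (0.61, adjusted p = 0.00159), so 2 of the 9 genes passed, against 7 with the matched DMSO. The 4 h rise of Crp in GFP cells read 0.09 (adjusted p = 0.586) against the 2 h DMSO arrays, whereas in HDAC4/5 shRNA cells it read 1.91 (adjusted p = 1.55e-07). In those shRNA cells the 4 h forskolin difference of 3 other genes changed direction against the 2 h DMSO arrays: Saa3 read 1.54 (adjusted p = 6.04e-06), Lcn2 read 1.00 (adjusted p = 1.94e-05) and Orm1 read 0.43 (adjusted p = 0.0105). With the matched 4 h DMSO arrays they read -0.57 for Saa3 (adjusted p = 0.0105), -0.17 for Lcn2 (adjusted p = 0.268) and -0.27 for Orm1 (adjusted p = 0.0866), so that Saa3 alone of the 3 passed there. Saa1 in shRNA cells after 2 h of forskolin read -0.39 (adjusted p = 0.0202) against the 4 h DMSO arrays. Scaling arrays to a common median moved the median of all genes by -0.25 in GFP cells at 2 h, and 13.9% of the called genes were then higher, against 49.5% after quantile normalization. The same scaling left 30.7% of called genes higher in GFP cells at 4 h, against 44.8%.

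**Figure D4:**
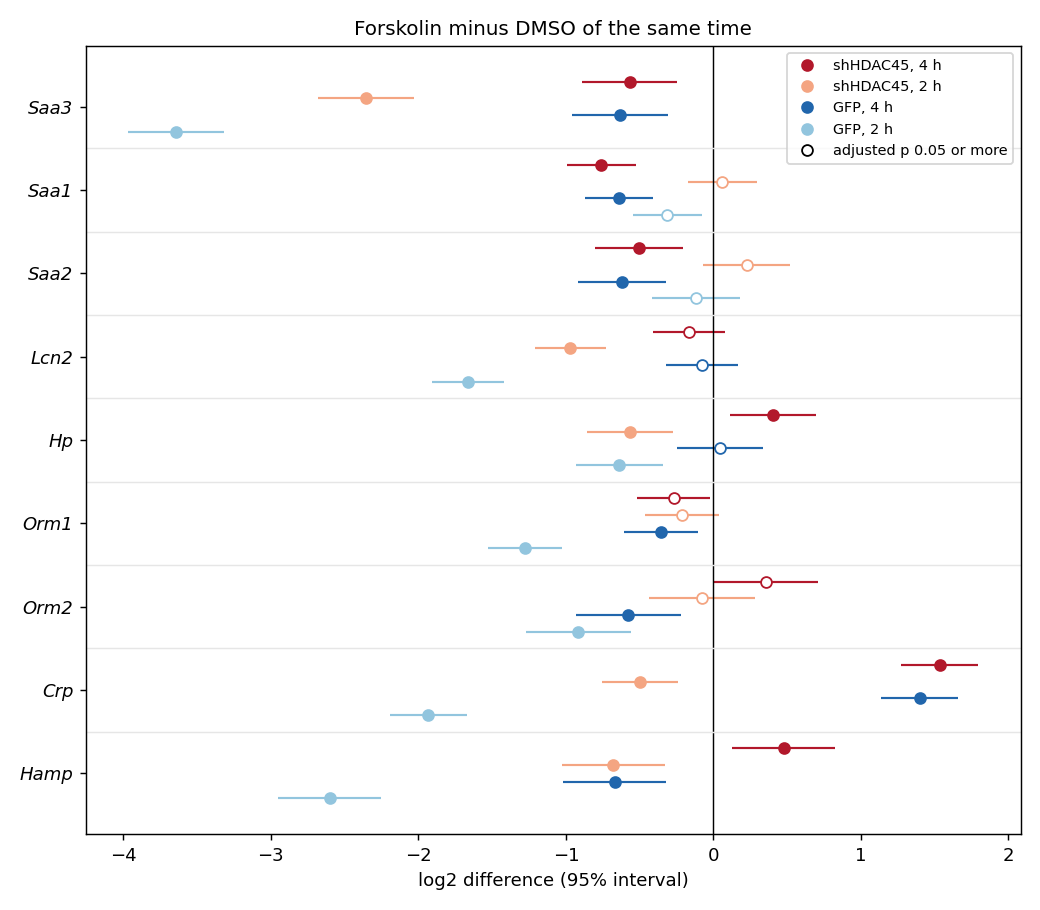
Log2 difference of forskolin minus DMSO of the same virus and time for the 9 genes (horizontal axis, 95% interval, 2 arrays a group), with shHDAC45 for HDAC4/5 shRNA; open points did not pass an adjusted p of 0.05. Crp is at 1.53 and 1.40 at 4 h in HDAC4/5 shRNA and GFP cells and at -0.50 and -1.93 at 2 h.

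Tests of differences between these effects compared the viruses and the times directly. The forskolin effect at 2 h differed between the viruses for 5 of the 9 genes, all less negative in HDAC4/5 shRNA cells, where 5.96% of all genes differed and 3.12% in that direction. The largest of these were Hamp (1.92, SE 0.23, adjusted p = 0.000206) and Crp (1.44, SE 0.17, adjusted p = 0.000213). At 4 h it differed for 2, Hamp (1.15, adjusted p = 0.00724) and Orm2 (0.93, adjusted p = 0.0275), where 8.57% of all genes differed and 4.80% in that direction. Between 4 h and 2 h the forskolin effect differed for 7 genes in shRNA cells (5 more positive at 4 h, 2 more negative), where 19.8% of all genes differed, and for 6 genes in GFP cells, all more positive at 4 h, where 26.6% differed and 12.6% in that direction. Crp had the largest such difference in both viruses, 2.03 in shRNA cells (adjusted p = 1.46e-05) and 3.33 in GFP cells (adjusted p = 5.31e-08). For Hp these tests used the brighter probe. On its second probe the forskolin effect was 0.46 at 4 h and -1.45 at 2 h in GFP cells, and 0.77 and -0.95 in shRNA cells. Each of these tests uses the DMSO arrays of 2 h or 4 h a further time, and none is independent of the differences above. Without single arrays the call was lost for Lcn2 between the viruses at 2 h (0.60 to 0.69, adjusted p = 0.0565 to 0.0811, for HDAC4/5 shRNA forskolin array B, shRNA DMSO array A, GFP forskolin array B and either GFP DMSO array). Orm2 gained a call there without either 4 h DMSO array of shRNA cells (0.84, adjusted p = 0.0245). At 4 h Orm2 lost its call without either shRNA forskolin array, shRNA DMSO array B, GFP forskolin array B or GFP DMSO array A (0.67 to 0.95, adjusted p = 0.0684 to 0.0977). Between times Saa2 in shRNA cells lost it without 2 h forskolin or DMSO array B or 4 h forskolin or DMSO array A (-0.63 to -0.56, adjusted p = 0.0723 to 0.0801). Hp in GFP cells lost it without 2 h forskolin array B, 2 h DMSO array A, 4 h forskolin array A or 4 h DMSO array B (0.52 to 0.65, adjusted p = 0.055 to 0.082).

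Other genes of the acute phase response and its upstream pathways were read from lists. Of 22 tested genes of the interleukin-1, tumour necrosis factor and NF-kB pathway (32 listed), 9 rose and 0 fell from 2 h to 4 h of DMSO in HDAC4/5 shRNA cells, and 2 rose and 12 fell in GFP cells, with medians of 0.36 and -0.92. Il1b, which encodes the cytokine interleukin-1 beta, was at 3.16 in shRNA cells (adjusted p = 3.57e-09) and -3.92 in GFP cells (adjusted p = 3.07e-10). Il1a was at 2.08 and -2.25 (adjusted p = 3.31e-06 and 8.2e-07), and Irak3, an inhibitor of interleukin-1 receptor signalling, at 0.91 and -2.20 (adjusted p = 0.000156 and 2.07e-08). Saa3, Lcn2, Hamp, Orm1 and Saa1 had the same directions over DMSO time, while Crp, Orm2, Saa2 and Hp did not pass in shRNA cells. A link between these genes was not tested. Over the same times 8.64% and 11.7% of all genes changed. Between the viruses 13 genes of the list were higher and 3 lower in shRNA cells at 4 h of forskolin, 13 and 2 at 4 h of DMSO, 6 and 4 at 2 h of forskolin, and 2 and 11 at 2 h of DMSO, where 59.1%, 52.7%, 50.1% and 50.04% of all genes changed. The medians of the list were 0.50, 0.76, 0.09 and -0.54 in that order. At 4 h Il1b was higher in shRNA cells by 3.96 under forskolin (adjusted p = 7.73e-11) and 4.62 under DMSO (adjusted p = 2.67e-11), and Tnfaip3, an inhibitor of NF-kB signalling, by 4.03 under forskolin (adjusted p = 6.46e-11). Forskolin at 2 h, with which 21.3% of all genes changed in GFP cells and 4.80% in shRNA cells, lowered 14 of the 22 genes and raised 0 in GFP cells. Among the 14 were Tnfaip3 (-4.78, adjusted p = 1.6e-11) and Il1b (-2.37, adjusted p = 1.41e-08). These GFP differences rest on the 2 h DMSO arrays, and Il1b read -3.92 from 2 h to 4 h of DMSO. The 4 h DMSO arrays were not taken as a baseline for this list. In shRNA cells forskolin at 2 h lowered 7 and raised 1, Il1b (0.86, adjusted p = 0.000683), which is opposite to Saa3 there.

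Of 20 tested genes of the interleukin-6, JAK and STAT3 pathway (25 listed), 9 were higher and 4 lower in HDAC4/5 shRNA cells at 4 h of forskolin, 9 and 3 at 4 h of DMSO, 6 and 7 at 2 h of forskolin, and 7 and 7 at 2 h of DMSO. These stand beside 59.1%, 52.7%, 50.1% and 50.04% of all genes that changed, and the list's medians were 0.34, 0.23, 0.05 and -0.08. Il6 was higher in shRNA cells by 3.79 at 4 h of forskolin (adjusted p = 1.48e-08), and Lif, a related cytokine, by 3.96 (adjusted p = 2.99e-11). Il6 rose from 2 h to 4 h of DMSO in shRNA cells (2.07, adjusted p = 6.65e-05) and read -0.27 in GFP cells (adjusted p = 0.499). Socs3, the feedback inhibitor of this pathway, was higher in shRNA cells both at 4 h of DMSO (2.04, adjusted p = 5.29e-09) and at 2 h of DMSO (1.42, adjusted p = 2.15e-07), where Hamp differed in sign. In GFP cells forskolin raised Socs3 at 2 h by 2.86 (adjusted p = 4.23e-10). There 4 of the 20 genes rose and 5 fell, beside 21.3% of all genes that changed. Hnf4a, a transcription factor of hepatocyte genes, was lower in shRNA cells at 4 h of forskolin (-2.60, adjusted p = 1.69e-09).

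The other positive acute phase genes did not all move as the 9 did. Of 21 tested (32 listed), 5 were higher and 8 lower in HDAC4/5 shRNA cells at 4 h of forskolin, 4 and 10 at 4 h of DMSO, 3 and 10 at 2 h of forskolin, and 1 and 17 at 2 h of DMSO. Of all genes 59.1%, 52.7%, 50.1% and 50.04% changed in these comparisons, and the list's medians were -0.12, -0.36, -0.50 and -1.12. From 2 h to 4 h of DMSO 4 rose and 3 fell in shRNA cells, and 0 rose and 7 fell in GFP cells, where 8.64% and 11.7% of all genes changed. Cd14, a receptor for bacterial endotoxin, rose by 0.89 in shRNA cells (adjusted p = 8.26e-05) and fell by 2.32 in GFP cells (adjusted p = 4.7e-09). Steap4 and Saa4 fell in GFP cells (-2.46 and -2.02, adjusted p = 2.04e-07 and 4e-07). Serpina1b, an alpha-1 antitrypsin gene, was lower in shRNA cells at 4 h of DMSO (-3.67, adjusted p = 2.63e-10) and at 2 h (-2.98, adjusted p = 3.01e-09), the direction of Crp. With 4 h of forskolin 11 of the 21 rose and 3 fell in shRNA cells, and 5 rose and 3 fell in GFP cells. Of all genes 35.3% and 32.03% changed there, and the GFP count is close to that share. Among the genes that rose as Crp did was Fga, the fibrinogen alpha chain, by 1.58 in shRNA cells (adjusted p = 4.94e-07) and 0.94 in GFP cells (adjusted p = 3.39e-05). Another was Itih4, by 0.83 and 0.67 (adjusted p = 4.41e-05 and 0.000222). Of 9 negative acute phase genes tested (16 listed), which the liver makes less of in inflammation, 8 were lower and 0 higher in shRNA cells at 4 h of forskolin. The counts were 7 and 0 at 4 h of DMSO, 7 and 0 at 2 h of forskolin, and 5 and 1 at 2 h of DMSO. In these comparisons 59.1%, 52.7%, 50.1% and 50.04% of all genes changed. Transthyretin (Ttr) was lower at 4 h of forskolin (-1.31, adjusted p = 8.44e-08) and at 4 h of DMSO (-1.96, adjusted p = 2.55e-09). The hepatocyte marker list, which shares Alb, Ttr and Apoa1 with this one, had all 6 of its tested genes lower at 4 h under both treatments.

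Of 18 tested regulators of hepcidin (27 listed), 5 were higher and 4 lower in HDAC4/5 shRNA cells both at 4 h and at 2 h of DMSO, a share close to the 52.7% and 50.04% of all genes that changed, with medians of 0.10 and -0.06. Erfe, whose product lowers hepcidin, was higher in shRNA cells by 3.71 at 4 h (adjusted p = 1.45e-09) and 3.19 at 2 h of DMSO (adjusted p = 9.6e-09). Creb3l3, a liver transcription factor of the hepcidin gene in mice, was higher in shRNA cells by 1.57 at 2 h of DMSO (adjusted p = 1.42e-07), where Hamp was lowest relative to GFP. From 2 h to 4 h of DMSO Creb3l3 fell by 1.00 in shRNA cells (adjusted p = 9.36e-05) and rose by 0.69 in GFP cells (adjusted p = 0.00105), opposite to Hamp in both. Over that time 3 of the 18 rose and 2 fell in shRNA cells, and 1 rose and 3 fell in GFP cells. Of all genes 8.64% and 11.7% changed there. A link between these regulators and Hamp was not tested. Among 11 tested genes of iron handling (14 listed), 4 were higher and 2 lower in shRNA cells at 4 h of DMSO, again a share close to that of all genes (52.7%), with a median of -0.12. Hmox1, the haem-degrading oxygenase, was higher by 1.03 (adjusted p = 3.82e-06), the transferrin receptor Tfrc by 1.25 (adjusted p = 2.64e-05), and ferroportin (Slc40a1) was lower (-0.58, adjusted p = 0.000422).

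**Figure D5:**
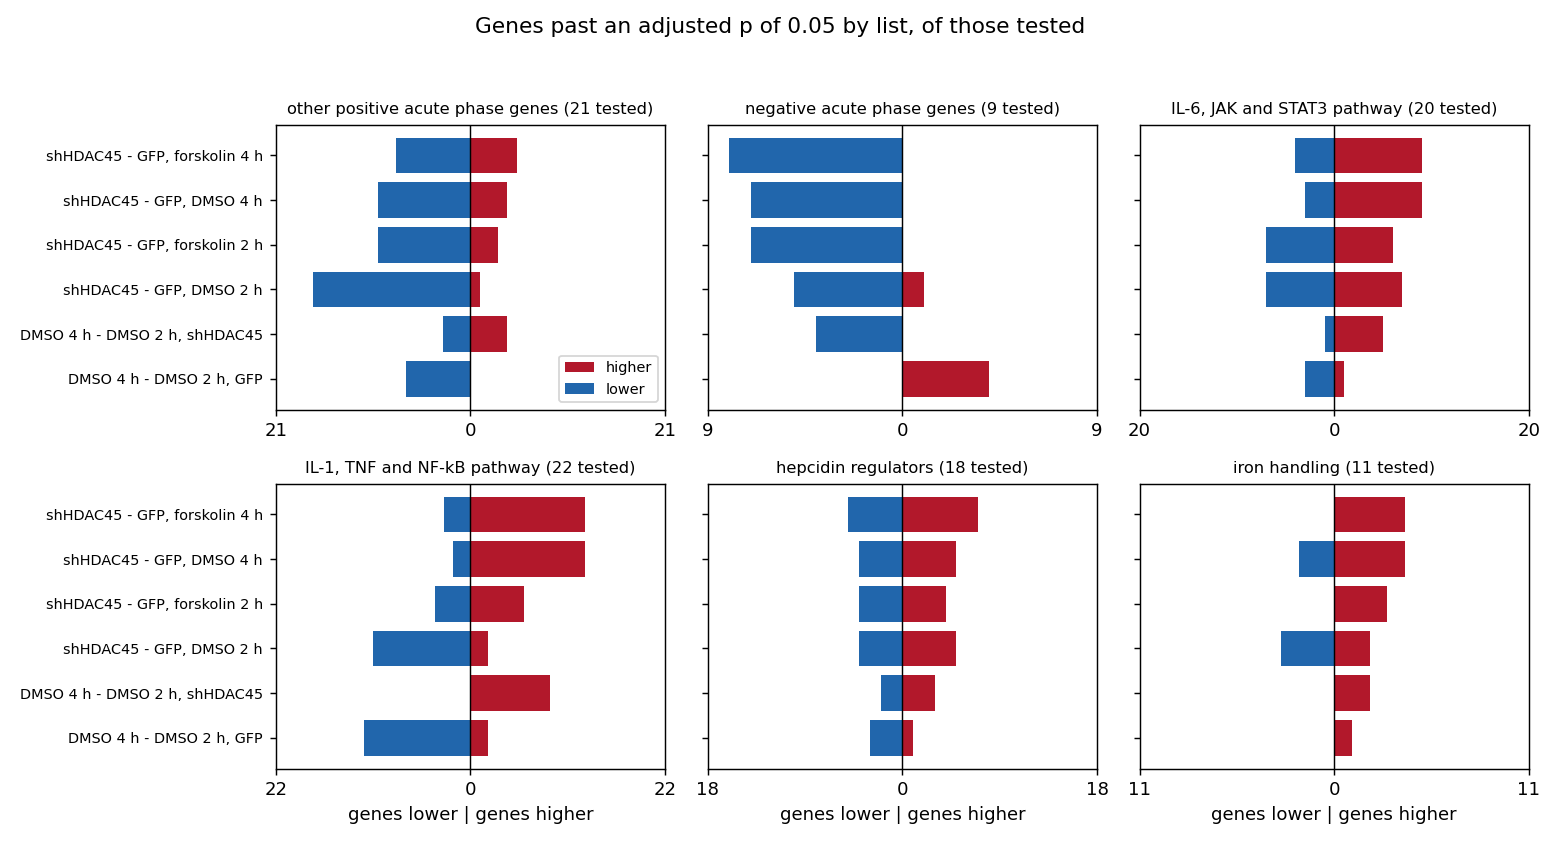
Numbers of genes past an adjusted p of 0.05 (horizontal axes, lower to the left and higher to the right) in 6 gene lists, for HDAC4/5 shRNA minus GFP at each treatment and time and for DMSO 4 h minus 2 h in each virus. The NF-kB list has 9 higher and 0 lower over DMSO time in HDAC4/5 shRNA cells and 2 higher and 12 lower in GFP cells.

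Some markers of other cells passed in these comparisons, and the shares of all genes that changed are given beside them. S100a8, a neutrophil and monocyte protein and 1 of 2 tested neutrophil markers of 10 listed (7 were never detected), rose over DMSO time in HDAC4/5 shRNA cells by 2.05 (adjusted p = 8.28e-07) and fell in GFP cells (-0.60, adjusted p = 0.00976). The other, Camp, passed in neither virus, and the medians of the 2 were 0.93 in shRNA cells and -0.58 in GFP cells. The 2 neutrophil markers summed to 198.3 to 202.5 linear signal units at 4 h and 113.2 to 114.9 at 2 h of DMSO in shRNA cells, and to 97.68 to 112.4 and 145.2 to 165.7 in GFP cells. At the same DMSO times the 7 tested macrophage markers of 13 listed summed to 5015 to 5240 and 3334 to 3555 in shRNA cells, and to 4825 to 5056 and 5415 to 5584 in GFP cells. The macrophage markers did not all follow their sum: 3 rose and 1 fell in shRNA cells (median -0.02), and 2 rose and 3 fell in GFP cells (median -0.12). Over these DMSO times 8.64% and 11.7% of all genes changed. Between the viruses 3 of the 7 were higher and 4 lower in shRNA cells at 4 h of DMSO, and 0 higher and 6 lower at 2 h of DMSO. In the virus comparisons 59.1% of all genes changed at 4 h of forskolin, 52.7% at 4 h of DMSO, 50.1% at 2 h of forskolin and 50.04% at 2 h of DMSO. Of 6 tested markers of stellate cells and fibroblasts (9 listed), 4 were higher and 0 lower in shRNA cells at 4 h of forskolin (median 0.60), 6 and 0 at 4 h of DMSO (0.90), and 3 and 0 at 2 h of either treatment. They summed to 12250 to 12610 in shRNA cells at 4 h of DMSO, against 8979 to 9274 in GFP cells. Of 5 tested endothelial markers (8 listed), 4 were higher at 4 h of forskolin (median 0.74) and 2 in each other virus comparison, with 0 lower. These 2 of 5, and the 3 of 6 stellate cell and fibroblast markers at 2 h, are no more than the shares of all genes that changed in either direction. The endothelial markers summed at 4 h of forskolin to 2052 to 2122 in shRNA cells, against 1132 to 1157 in GFP cells. Of 3 tested bile duct cell markers (6 listed), 3 were lower in shRNA cells under forskolin at each time and 2 under DMSO at each time, with 0 higher. At 4 h of DMSO they summed to 983.9 to 1068 in shRNA cells, against 6295 to 6778 in GFP cells (median -1.97). The part of these markers in the levels of the 9 genes, of which macrophages or neutrophils also express Saa3 and Lcn2, was not tested.

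To place each profile among all genes, Pearson's r over the 8 group means was ranked across the 3488 genes outside the 9 whose means spanned at least 1 log2 unit. These are descriptions over groups that share arrays, and no test goes with them. The genes most like Saa3 were the chemokine Cxcl2 (r = 0.985), the protease Ctsc (0.982) and the ribonuclease Zc3h12a (0.980). Those most like Lcn2 were Il1a (0.974), Vnn3 (0.973) and the superoxide dismutase Sod2 (0.969). For Crp they were the oxysterol hydroxylase Cyp7b1 (0.989), Acaa1a (0.975) and Gtdc1 (0.970), and for Hamp they were Nid1 (0.958), Sod2 (0.951) and Gpr84 (0.949). Orm1 was nearest to Trim30a (0.975), Abcc3 (0.965) and Olfr352 (0.965), and Orm2 to Mbl2 (0.953), Pla1a (0.947) and Abcc3 (0.946). Saa1 was nearest to Sdc4 (0.906), Psmb10 (0.905) and Gpr176 (0.902), Saa2 to Tgfb2 (0.949), Myadm (0.924) and Slc1a4 (0.917), and Hp to Zfp35 (0.960), Birc2 (0.946) and Ankrd49 (0.925). Several of these genes were dim outside their high groups, which limits what r says of them. In GFP cells after 4 h of forskolin Cxcl2 read 4.86, Zc3h12a 5.01, Gpr84 4.98, Olfr352 5.00 and Il1a 5.38. The Hdac5 probe was not detected at 5.72, on array A of shRNA cells after 2 h of DMSO. Among the 9 themselves Hamp correlated with Orm1 at 0.905 and with Lcn2 at 0.859, and Orm1 with Orm2 at 0.930. Crp had r = -0.217 with Saa3, the lowest of the 36 pairs, and 0.769 with Hp.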

How the data were processed

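Biotin-labelled cRNA from the hepatocyte RNA was hybridised to Illumina bead arrays, and the deposited table gives a non-normalized signal intensity and a detection p-value for each probe and array, per the file headers. GenomeStudio is named in the submitters' processing notes; its version and settings are not given in the sources used here. A second deposited table holds the authors' normalized intensity values, whose method is not given in the sources used here.

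The intensities were background-corrected from the detection p-values (neqc in limma 3.58.1, R 4.3.3, offset 16), quantile-normalized and put on a log2 scale. A probe was kept if it had 1 annotated gene and if 2 or more arrays detected it (p under 0.01), and the brightest probe stood for each of 7746 genes (1293 had several). The platform annotation gave 1 gene symbol for 20984 probes, several for 1 and none for 3628. One limma model of 8 group means over 16 arrays (8 residual and 4.6 prior degrees of freedom) gave 15 contrasts, adjusted by Benjamini-Hochberg over all genes at 0.05, and was tested on simulated data. Where an omission left a group with 1 array, the spread came from the remaining groups, which it is taken to share. The number of arrays limits the precision.

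The members, gene lists and tests were chosen with earlier results of these data known. Named list genes are up to 4 with the smallest p in the contrast described, given in other contrasts beside it. Alternatives covered background, scaling, the authors' values, probe filters and choice, the arrays fitted, the variance prior, the array letter, the DMSO arrays and each array left out.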

Additional observations from a re-analysis of the deposited data

Results flagged for a closer look

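These results stand here because an effect differed between the viruses or between the times by the test of the difference itself (limma, adjusted p under 0.05, 2 arrays a group), with no explanation weighed.

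The shift from 2 h to 4 h of DMSO, in HDAC4/5 shRNA minus GFP cells, differed by 6.16 for Saa3 (adjusted p = 7.73e-10), 5.11 for Hamp (9.48e-09), 2.78 for Lcn2 (9.68e-08), 2.12 for Orm1 (1.63e-06), 1.68 for Crp (2.08e-05), 1.38 for Saa1 (4.37e-05) and 1.37 for Orm2 (0.00171). Saa3, Hamp, Lcn2, Orm1 and Saa1 rose in HDAC4/5 shRNA cells and fell in GFP cells.

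The forskolin effect in HDAC4/5 shRNA minus GFP cells differed at 4 h by 1.15 for Hamp (adjusted p = 0.00724) and 0.93 for Orm2 (0.0275). At 2 h it differed by 1.92 for Hamp (0.000206), 1.44 for Crp (0.000213), 1.29 for Saa3 (0.00263), 1.07 for Orm1 (0.00153) and 0.69 for Lcn2 (0.0202).

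The forskolin effect at 4 h minus that at 2 h differed in HDAC4/5 shRNA cells by 2.03 for Crp (adjusted p = 1.46e-05), 1.79 for Saa3 (0.000139), 1.16 for Hamp (0.00355), 0.97 for Hp (0.00355), 0.80 for Lcn2 (0.00357), -0.73 for Saa2 (0.0193) and -0.82 for Saa1 (0.00241). In GFP cells it differed by 3.33 for Crp (5.31e-08), 3.01 for Saa3 (8.03e-07), 1.93 for Hamp (5.16e-05), 1.59 for Lcn2 (1.37e-05), 0.92 for Orm1 (0.00115) and 0.68 for Hp (0.0188).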

How the results depend on the processing

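Of 135 differences of the 9 genes (94 called), 89 kept their direction and their side of the threshold under every other setting that applied to them. A sign change where neither value passed counts as kept. The 26 other settings include the DMSO arrays of the other time, which applied only to forskolin minus DMSO. The remaining differences were not put to that setting. Over 3411 values, 3279 kept both, 87 lost a call, 36 gained one and 9 reversed. All 9 reversals came from taking the DMSO arrays of the other time as control: in HDAC4/5 shRNA cells Saa3 (1.54), Lcn2 (1.00) and Orm1 (0.43) at 4 h and Saa1 (-0.39) at 2 h, and in GFP cells at 2 h Saa1 (0.61), Saa3 (0.41), Hamp (0.26), Orm2 (0.17) and Orm1 (0.15). With those controls 1578 genes in place of 372 were called for forskolin in HDAC4/5 shRNA cells at 2 h, and 2 of the 9 in place of 7 in GFP cells at 2 h.

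Fitting the compared groups alone, which leaves fewer degrees of freedom, gave 183 called genes in place of 372 (forskolin, shRNA, 2 h), 1087 in place of 1651 (forskolin, GFP, 2 h), 355 in place of 669 (DMSO time, shRNA), 538 in place of 907 (DMSO time, GFP) and 300 in place of 462 (virus by forskolin, 2 h). Of the 9, 2 in place of 5 were called for forskolin in shRNA cells at 2 h and 1 in place of 2 for virus by forskolin at 4 h. Leaving out 1 array at a time gave 190 to 370 genes (forskolin, shRNA, 2 h), 1041 to 1654 (forskolin, GFP, 2 h), 371 to 677 (DMSO time, shRNA), 502 to 918 (DMSO time, GFP) and 418 to 636 (virus by forskolin, 4 h). Of the 9 it left 2 to 5 (forskolin, shRNA, 2 h), 2 to 6 (forskolin, shRNA, 4 h) and 1 to 2 (virus by forskolin, 4 h).

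Scaling to a common median reversed no call. It ended 7 calls: for forskolin in shRNA cells at 4 h Saa2 (-0.37, adjusted p = 0.0537) and Hp (0.26, 0.203), for the virus Orm1 at 4 h of DMSO (0.34, 0.075) and Lcn2 at 2 h of forskolin (-0.33, 0.0659), for DMSO time in shRNA cells Saa1 (0.44, 0.0659), and for forskolin by time Saa2 in shRNA cells (-0.54, 0.072) and Hp in GFP cells (0.52, 0.0902). It added 6: Saa1 (-0.60, 0.003) and Saa2 (-0.38, 0.0452) for forskolin in GFP cells at 2 h, where 9 of the 9 were then called in place of 7, Saa2 (0.42, 0.0159) and Hp (0.44, 0.0203) for the virus at 4 h of forskolin, Orm2 for virus by forskolin at 2 h (1.10, 0.0079) and Saa2 for virus by DMSO time (0.66, 0.0488). It moved the median of all genes by 0.21 (virus by forskolin, 2 h), 0.15 (4 h), 0.10 (forskolin by time, shRNA) and 0.15 (GFP); 82.5%, 78.0%, 59.5% and 66.0% of the called genes were then higher, against 52.4%, 56.0%, 46.7% and 47.3%. For DMSO time 35.3% were higher in GFP cells, against 51.6%, and 59.7% for its difference between viruses, against 48.7%.

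By the labels the array letter paired nothing. Yet deviations of arrays with the same letter correlated positively over all 28 pairs of groups (0.049 to 0.307, median 0.22), 25 of them over 0.1. The main model has no term for the letter. The replicate block called 482 genes for forskolin in shRNA cells at 2 h and 4849 for the virus at 4 h of forskolin, lost no call of the 9, and gained Hp for the virus at 4 h of forskolin (0.26, adjusted p = 0.0439), Hp for virus by DMSO time (0.54, 0.0292), Orm2 for virus by forskolin at 2 h (0.84, 0.0445) and Saa1 for forskolin in GFP cells at 2 h (-0.31, 0.0497). Signals of Lcn2, Hp and Saa3 near the top of the range limit how far their highest levels can be told apart. The causes of these changes were not tested.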
